A study of Mus musculus with 6 samples.

Results

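Noncoding host genes of small nucleolar RNAs (snoRNAs) were examined in common myeloid progenitors of mice that expressed wild-type or S34F mutant U2AF1. The genes Gas5, Snhg1, Snhg3, Snhg5, Snhg6, Snhg8, Snhg12, Snhg15 and Zfas1 were looked up by exact name in a table of gene read counts and a table of splice junction read counts. Of these 9 hosts, 5 were present, among 13932 genes in all, and they held 52 of the 151811 junctions. Gas5 had 28 of these junctions, Snhg1 11, Snhg5 and Snhg12 5 each, and Snhg3 3. Snhg6, Snhg8, Snhg15 and Zfas1 had no row under those names and are not in the counts of hosts given here.

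RNA came from donor-derived cells sorted as lineage-negative, c-Kit+, Sca-1-, CD34+ and Fcgamma-, from mice transplanted with marrow that carried a doxycycline-inducible U2AF1 transgene and the transactivator rtTA. The transgene was U2AF1(S34F) in 3 libraries and U2AF1(WT) in the other 3. All mice received doxycycline chow for 5 days, more than 6 weeks after transplantation, so the transgene, rtTA and the drug are shared and the groups differ in the transgene's sequence. Marrow of 4 to 5 mice was pooled for a library, which makes each replicate a pool and not an animal. Ribosomal RNA was depleted before stranded libraries were read from both ends for 100 bases. The age of the mice is not given in the labels.

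Noncoding snoRNA hosts are transcribed by RNA polymerase II and spliced, and their introns are trimmed to snoRNAs that guide chemical modification or cleavage of ribosomal RNA. The exons that remain usually carry only short open reading frames. In mammals the spliced RNAs of several hosts, Gas5 among them, are translated and then removed by nonsense-mediated decay, the pathway that destroys RNAs with an early stop codon. Gas5 and some other hosts begin with a run of pyrimidines that they share with ribosomal protein genes and that ties their translation to cell growth. U2AF1 recognises the AG that closes an intron, and S34F is known to alter which bases just before it are preferred. An intronic snoRNA is released once its host has been spliced at such a site.

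Gas5, the growth arrest-specific transcript, is a chain of very short exons, and the cassette events of exons 4 and 7 had the lowest p-values among the Gas5 cassette events tested. Both exons and exon 8 are printed with the 6 intron bases on each side, from the reference genome of build mm9 on the plus strand, with the exon in capitals. Exon 4 lies at chr1:162966339-162966375 and has C before the AG of its acceptor. Exon 7 lies at chr1:162967255-162967295 and has T there. Exon 8, at chr1:162967419-162967446, has C there. It is the exon to which exon 6 was spliced in most of the exon 6 reads that skipped exon 7.

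Gas5 exon 4: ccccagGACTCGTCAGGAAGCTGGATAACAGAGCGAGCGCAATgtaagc
Gas5 exon 7: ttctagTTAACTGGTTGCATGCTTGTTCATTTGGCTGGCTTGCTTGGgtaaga
Gas5 exon 8: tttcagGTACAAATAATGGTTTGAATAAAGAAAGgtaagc

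In Snhg1, host of a cluster of box C/D snoRNAs, junctions ended at a second AG a few bases downstream of the main one at 2 introns. Both windows are on the plus strand of mm9, at chr19:8799955-8799988 and chr19:8800709-8800746, with both AGs in capitals. The first of the AGs is the main acceptor in each.

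Snhg1 acceptor pair 2 nt apart: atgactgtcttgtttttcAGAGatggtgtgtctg
Snhg1 acceptor pair 6 nt apart: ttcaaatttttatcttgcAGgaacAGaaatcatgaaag

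To show what such an intron releases, Snord47, from Gas5 intron 10 at chr1:162968213-162968289, is printed with the letters of its boxes C (TGATGA) and D (CTGA) in capitals. These boxes are the binding sites of the proteins that protect and use box C/D snoRNAs.

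Snord47: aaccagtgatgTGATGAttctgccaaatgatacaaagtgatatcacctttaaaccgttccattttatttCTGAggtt

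The S34F libraries held 46827909 to 51862032 gene reads and the WT libraries 54727541 to 94562984, so every S34F library was shallower than every WT library. Junction reads ran from 41003848 to 82730420 per library. Kit and Cd34, the markers of the sort, summed to a count scaled to a common library size (CPM) of 844 to 1060 in S34F and 916 to 1029 in WT. Most of this was Cd34, and Kit alone ran from 149 to 192 CPM in S34F and from 92.4 to 209 in WT. Ddx3y, a Y-linked gene, had 5714 and 5580 reads in replicate 1 of S34F and WT and 0 in the other libraries. The 9 markers of dendritic cells and macrophages, all in the table, summed to 169 to 239 CPM in S34F and 309 to 507 in WT. The log2 fold change was 0.03 for Csf1r, the largest of them with a mean of 137 CPM, and -0.46 for Adgre1. The others ran from -2.71 (H2-Aa) to -1.74 (H2-Ab1). The 5 megakaryocyte markers summed to 85.7 to 114 and 124 to 167 CPM, and most of this was Itga2b, with a mean of 110 CPM. The log2 fold change was -0.58 for Itga2b, -0.34 for Gp9 and -0.96 for Gp1bb, and 0.04 for both Pf4 and Vwf. In RNA of whole sorted populations, fewer cells of a type and less RNA per cell cannot be told apart, and the part of these differences in the results on the hosts was not tested.

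By level per length, taken from the authors' FPKM (fragments scaled by gene length and library size), Gas5 was the most abundant host. Its FPKM was 381, 275 and 173 in the S34F libraries and 185, 257 and 192 in the WT libraries, and the lowest of these stood above every library of every other host. Snhg5 averaged 34.9 FPKM over the 6 libraries, Snhg1 33.3 and Snhg12 32.5. Snhg3 averaged 21.5 FPKM, with libraries from 13.9 to 29.8. The libraries of Snhg5, Snhg1, Snhg12 and Snhg3 overlapped, so the order among those 4 is not firmer than their spread. The mean of Gas5 was 6.97 times that of the next host by FPKM and 1.81 times when reads were divided by the total length of annotated exons, which puts Snhg1 in the second place. By annotated exon length the libraries of these hosts overlapped, with 91.3 for Gas5 in WT replicate 3 and 95.4 for Snhg1 in S34F replicate 1. That length is 3760 nt for Gas5 and 2947 nt for Snhg1, where it covers the whole gene. It thus takes in stretches that are introns in other transcripts. Reads from introns can therefore be among the gene reads and CPM of these hosts, and their part was not tested.

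The question of the gene-level comparison was whether the mutant changed how much of each host RNA the progenitors held. All 5 hosts had higher mean CPM in S34F than in WT (49.1% of all genes had a log2 fold change above 0), and the CPM-based log2 fold changes had a median of 0.58 against -0.01 over all genes, although in FPKM the difference of Snhg1 has the opposite sign. edgeR's quasi-likelihood test with Benjamini-Hochberg adjustment called 0 of the 5 hosts at 0.05, and 0% of the 13905 genes tested. DESeq2 called 0 of the 5 as well, against 0.689% of genes. At an unadjusted edgeR p under 0.05, 2 hosts, Gas5 and Snhg5, were higher, where 4.39% of all genes were. No difference in the level of a host RNA was therefore called over all 6 libraries.

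Snhg5, on chromosome 9 at 88415894 to 88417721 on the minus strand, is the spliced host of 2 snoRNAs annotated as SNORD50. It stood at 89.8, 87.9 and 86.2 CPM in the S34F libraries and at 78.3, 51.5 and 46.6 CPM in the WT libraries. Every S34F library lay above every WT library, and WT replicate 1 was the WT library nearest to them. The means were 88.0 ± 1.81 and 58.8 ± 17.0 CPM (SD, n = 3), 1.50-fold higher, with a log2 fold change of 0.58 ± 0.19 (SE; edgeR adjusted p = 0.538; DESeq2 adjusted p = 0.206). Snhg1 was the other host with no overlap, where 7.16% of all genes had every S34F library above every WT library.

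Gas5, at chromosome 1, 162964553 to 162968670 on the plus strand, is annotated with 25 transcripts and 9 intronic snoRNAs. It had 867, 681 and 447 CPM in S34F and 453, 493 and 346 CPM in WT. S34F replicates 1 and 2 were the highest libraries, while S34F replicate 3 lay within the WT range. The means were 665 ± 210 and 431 ± 76.4 CPM (SD, n = 3), with a log2 fold change of 0.63 ± 0.24 (SE; edgeR adjusted p = 0.548; DESeq2 adjusted p = 0.288). An antisense gene, Zbtb37, overlaps the first 428 nt of Gas5, and no source used here says whether reads were counted by strand.

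Snhg1, at chromosome 19, 8797986 to 8800932 on the plus strand, hosts 8 annotated snoRNAs. It had 279, 237 and 232 CPM in S34F and 228, 226 and 218 CPM in WT. The groups did not overlap, but the closest libraries of each were nearly level. The log2 fold change was 0.15 ± 0.10 (SE; edgeR adjusted p = 0.630).

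Snhg12 and Snhg3 lie close to each other on chromosome 4. Snhg12, at 131864593 to 131866939 on the plus strand and host of box H/ACA snoRNAs and Snord99, had 52.5, 38.4 and 43.4 CPM in S34F and 47.8, 29.4 and 24.6 in WT. Its groups overlapped through WT replicate 1, and the log2 fold change was 0.40 ± 0.25 (SE; edgeR adjusted p = 0.614). Snhg3, at 131903929 to 131909601 on the minus strand and host of Snora73a and Snora73b, had 19.0, 13.5 and 11.2 CPM in S34F and 12.8, 7.57 and 8.57 in WT. Its groups overlapped as well, with a log2 fold change of 0.59 ± 0.26 (SE; edgeR adjusted p = 0.552). Of Snhg3, 5592 nt lie within Rcc1 on the same strand, so how reads were split between them makes its level uncertain.

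**Figure D1:**
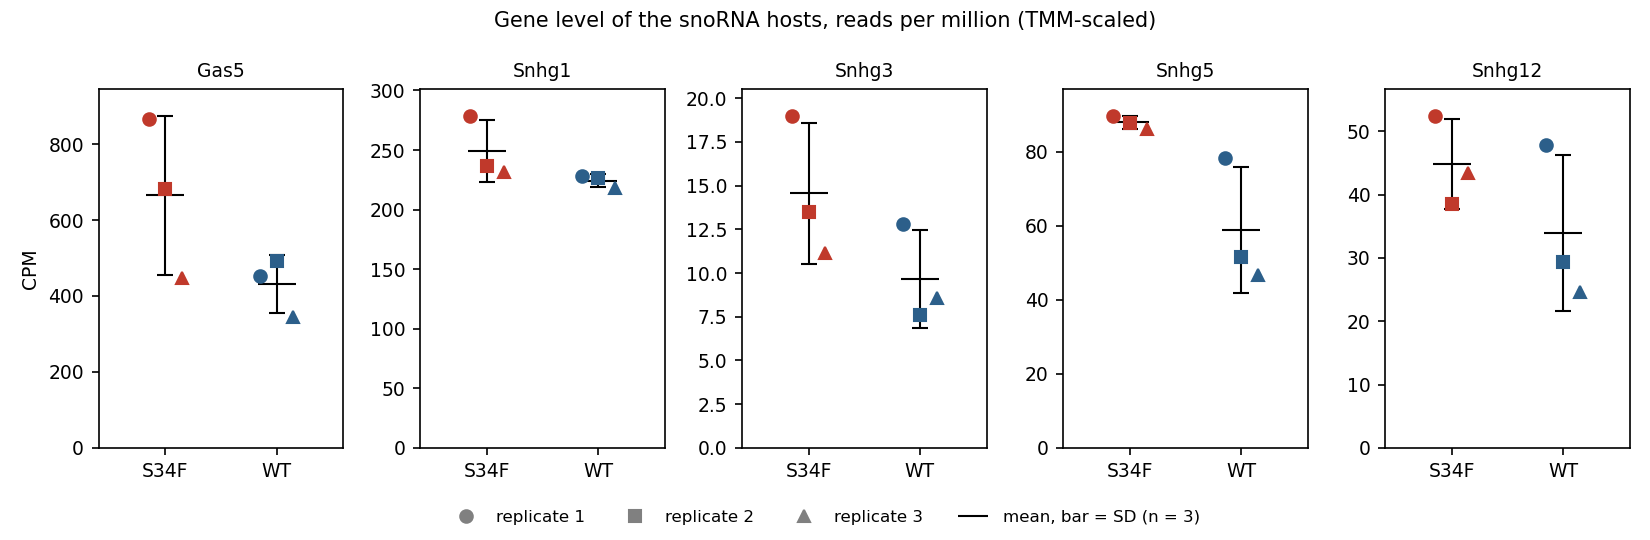
Level of each host in TMM-scaled CPM (y axis, starting at 0) in S34F and WT libraries; each point is a library, its shape the replicate, and the line and bar are the mean and SD of 3 libraries. Snhg5 and Snhg1 show no overlap between genotypes. WT replicate 1 is high in Snhg5, Snhg3 and Snhg12 relative to its group, and S34F replicate 1 in Snhg3 and Snhg12. The small excess of Snhg1 in S34F has the opposite sign in FPKM.

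WT replicate 1 bore on these comparisons. WT replicates 2 and 3, the deepest libraries, had the lowest CPM of Snhg3, Snhg5 and Snhg12, and WT replicate 1 had the highest of the WT group for these hosts. Without WT replicate 1, edgeR called Snhg5 (log2 fold change 0.84, adjusted p = 0.00745) and Snhg12 (0.73, adjusted p = 0.0361) as higher, 2 of 5 hosts where 6.72% of all genes were called higher. Without both replicate 1 libraries, Snhg5 was called (0.83, adjusted p = 0.0246) where 3.66% of genes were called higher. Without S34F replicate 3 and WT replicate 1, the pair of libraries with fewest Gas5 junction reads per gene read, Snhg5 was called too (0.85, adjusted p = 0.0475) where 0.748% of genes were. The part of sequencing depth or of the sex of the cells in these differences was not tested.

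The authors' deposited table of gene tests gives fold changes in the same direction, from 1.10 for Snhg1 to 1.37 for Snhg5, with adjusted p-values from 0.212 to 0.699 for the 5 hosts. In the authors' FPKM, the median log2 difference between S34F and WT over 12107 genes was -0.32. Relative to that median, the FPKM differences were 0.65 for Gas5, 0.60 for Snhg5, 0.59 for Snhg3, 0.49 for Snhg12 and 0.09 for Snhg1. Before that shift is taken out, Snhg1 had -0.23 and the other 4 hosts 0.17 to 0.33.

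The spliced part of each host's signal was read as splice junction reads per gene read, which depends on exon lengths as well as on splicing and so is compared only within a gene. It also depends on how many intron reads are among the gene reads, which the counts do not show. Gas5 exons 2 to 11 are 28 to 53 nt long, so a read of 100 nt can cross several Gas5 junctions and the ratio can exceed 1. Gas5 had 1.72, 1.85 and 0.603 junction reads per gene read in S34F and 0.587, 1.57 and 1.02 in WT. The low libraries were S34F replicate 3 and WT replicate 1, and the high libraries S34F replicates 1 and 2 and WT replicate 2, so the split crossed the genotypes. The log2 difference between genotypes was 0.34 ± 0.45 (SE; limma adjusted p = 0.885). The highest Gas5 library was 3.16 times the lowest, the third widest range among 1916 genes with at least 5000 gene reads in every library, where the median gene had 1.07. The genes with a wider range, Ccrn4l and Hist1h2be, had ratios of at most 0.0848, that is, few junction reads at all.

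Snhg12 was the host whose junction reads per gene read separated the genotypes. It had 0.948, 0.810 and 0.790 in S34F and 0.757, 0.543 and 0.544 in WT. Every S34F library lay above every WT library, which was so for 4.75% of all 10756 genes tested. The means were 0.850 ± 0.0860 and 0.615 ± 0.123 (SD, n = 3) and the log2 difference 0.48 ± 0.13 (SE; limma adjusted p = 0.679). An unadjusted p under 0.05 was reached by 1 of the 5 hosts and by 6.81% of all genes, and limma called 0 hosts and 0.0093% of genes. Without WT replicate 1 the difference was called (0.64, limma adjusted p = 0.0272, background 0.223%), and also without both replicate 1 libraries (0.56, limma adjusted p = 0.0432, background 0.101%).

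The other hosts did not separate in this ratio. Snhg1 ranged from 0.613 to 0.747 in S34F and from 0.603 to 0.826 in WT (limma adjusted p = 0.834). Snhg5 stayed between 0.785 and 0.883 in all 6 libraries (limma adjusted p = 0.903). Snhg3 ranged from 0.392 to 0.587 in S34F and from 0.477 to 0.554 in WT (limma adjusted p = 0.895).

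**Figure D2:**
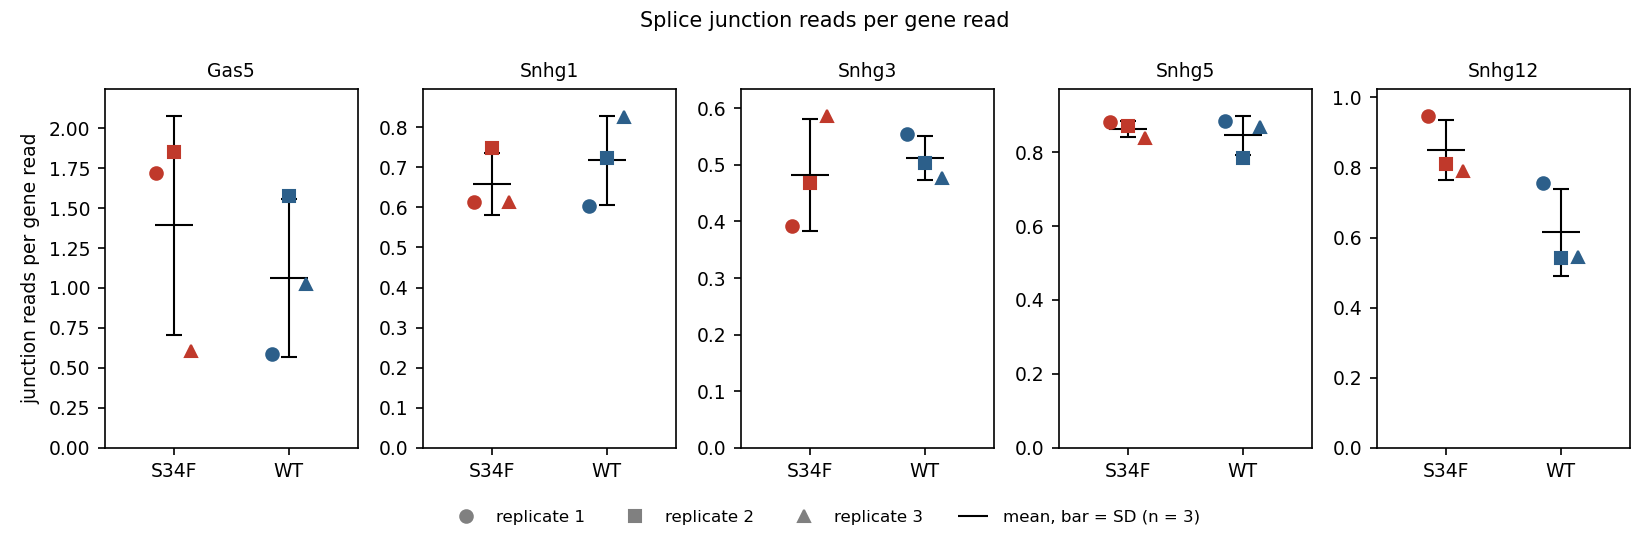
Splice junction reads per gene read (y axis, starting at 0) for each host in S34F and WT libraries; each point is a library, its shape the replicate, and the line and bar are the mean and SD of 3 libraries. Gas5 is low in S34F replicate 3 (0.603) and WT replicate 1 (0.587), and Snhg12 is the host whose groups do not overlap.

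The uneven Gas5 junction signal was located along the transcript. As junction reads scaled to the junction reads of the library (junction CPM), intron 3, which holds SNORD24, had 200, 181 and 20.5 in S34F and 23.3, 100 and 37.2 in WT. Intron 8, which holds SNORD79, had 162, 120 and 10.6 in S34F and 12.6, 68.8 and 21.1 in WT. At intron 3 and at intron 8 alike, S34F replicate 3 and WT replicate 1 were the lowest libraries. For introns 1 to 8 the highest library was 8.23 to 15.4 times the lowest. At intron 9 this was 4.35 times, and at introns 10 and 11, which hold Snord47 and SNORD81, 2.42 and 2.48 times. Intron 10 had 203, 153 and 95.5 in S34F and 84.0, 122 and 86.7 in WT, so the libraries differed far less at the 3′ end of the transcript.

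The first Gas5 intron had, relative to the last, a read ratio of 0.448, 0.549 and 0.116 in S34F and 0.160, 0.397 and 0.205 in WT (exact permutation p = 0.5, two-sided; the smallest that 3 against 3 allow is 0.1). This ratio ordered the libraries nearly as the junction reads per gene read did. Snhg5 had 1.37 to 1.57 in S34F and 1.53 to 1.90 in WT for the same ratio, Snhg1 0.856 to 0.988 and 0.704 to 1.10, and Snhg12 0.846 to 1.32 and 0.611 to 1.52. The highest value was 4.75 times the lowest in Gas5, 2.49 times in Snhg12, 1.56 times in Snhg1 and 1.39 times in Snhg5. In all other genes, 2433 introns that lie between exons both under 60 nt summed to 16765 to 17325 junction CPM in every library. This is a sum over many genes and does not show how single genes with short exons varied.

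**Figure D3:**
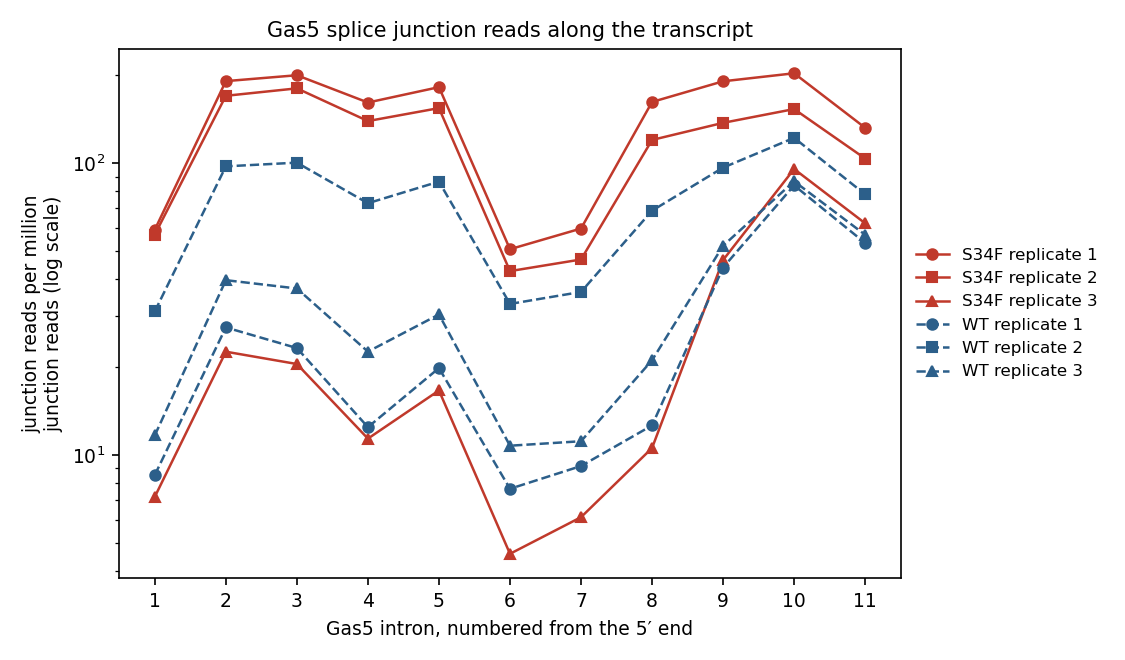
Junction reads scaled to the library total (junction CPM, y axis, log scale) at the 11 Gas5 introns of the main path, numbered from the 5′ end (x axis), with a line for each library and solid red lines for S34F and dashed blue lines for WT. The libraries are spread 8.23 to 15.4 times apart at introns 1 to 8 and 2.42 to 2.48 times apart at introns 10 and 11, and the order does not follow genotype.

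Shares of splicing choices within Gas5 were then compared, each set against the junction reads of the same choice. Such a share can still vary with the uneven signal along the transcript where its junctions lie far apart. Inclusion of exon 7, the mean of the junction reads into and out of it as a share of that mean plus the reads that skip it, was 37.1, 38.0 and 42.4% in S34F and 54.4, 51.1 and 50.3% in WT. Every S34F library lay below every WT library, including S34F replicate 3 and WT replicate 1, which had only 313 and 328 skipping reads where the others had 896 to 4178. The means were 39.1 ± 2.82% and 51.9 ± 2.17% (SD, n = 3), a difference of -12.8 percentage points. On the log2 scale of inclusion against skipping it was -0.75 ± 0.16 (SE; edgeR adjusted p = 0.218; DESeq2 adjusted p = 0.0145). In cassette exons of all genes, 11.6% had every S34F library below every WT library.

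Exon 4 had higher inclusion in every S34F library. Against reads from exon 3 straight to exon 5, its inclusion was 90.8, 92.9 and 95.3% in S34F and 87.5, 88.7 and 86.4% in WT. These skipping reads numbered 816, 500 and 34 in S34F and 119, 689 and 391 in WT. The groups again did not overlap, where 8.02% of all cassette exons had every S34F library above. The means were 93.0 ± 2.23% and 87.5 ± 1.18% (SD, n = 3), 5.49 percentage points apart. The log2 difference was 0.91 ± 0.24 (SE; edgeR adjusted p = 0.271; DESeq2 adjusted p = 0.0978). A longer form of exon 4, which starts at an unannotated acceptor at 162966226 and is 150 nt long, shares the skipping junction and the downstream junction with exon 4. Its log2 difference was 1.02 ± 0.22 (SE; edgeR adjusted p = 0.220; DESeq2 adjusted p = 0.0334), but only 59, 38 and 0 reads in S34F and 25, 39 and 22 in WT entered it at its own acceptor, so that value repeats the one for exon 4.

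Exon 8, which follows exon 7, did not separate: its inclusion after exon 6 was 90.5, 90.9 and 88.3% in S34F and 90.9, 91.6 and 90.2% in WT (edgeR adjusted p = 0.795). Exons 2, 3 and 5 were included in at least 98.0% in every library. Exon 10, set against reads from exon 6 straight to exon 11, had 88.5, 86.0 and 96.4% in S34F and 97.4, 92.6 and 96.0% in WT (edgeR adjusted p = 0.562). WT replicate 1 and S34F replicate 3, the libraries of fewest Gas5 junction reads per gene read, had its highest values. The part of the uneven signal in this share was not tested. Of 6 Gas5 cassette events with enough reads, 3 had an unadjusted edgeR p under 0.05 (exon 7 and both forms of exon 4), where 10.8% of the 7210 events of all genes did, but these 3 share a gene and in part their reads. edgeR called 0 of the 6 and 0.0277% of all events, while DESeq2 called exon 7 and the long form of exon 4, 2 of the 6, and 1.37% of all events. The other hosts had no cassette event with enough reads of both forms.

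**Figure D4:**
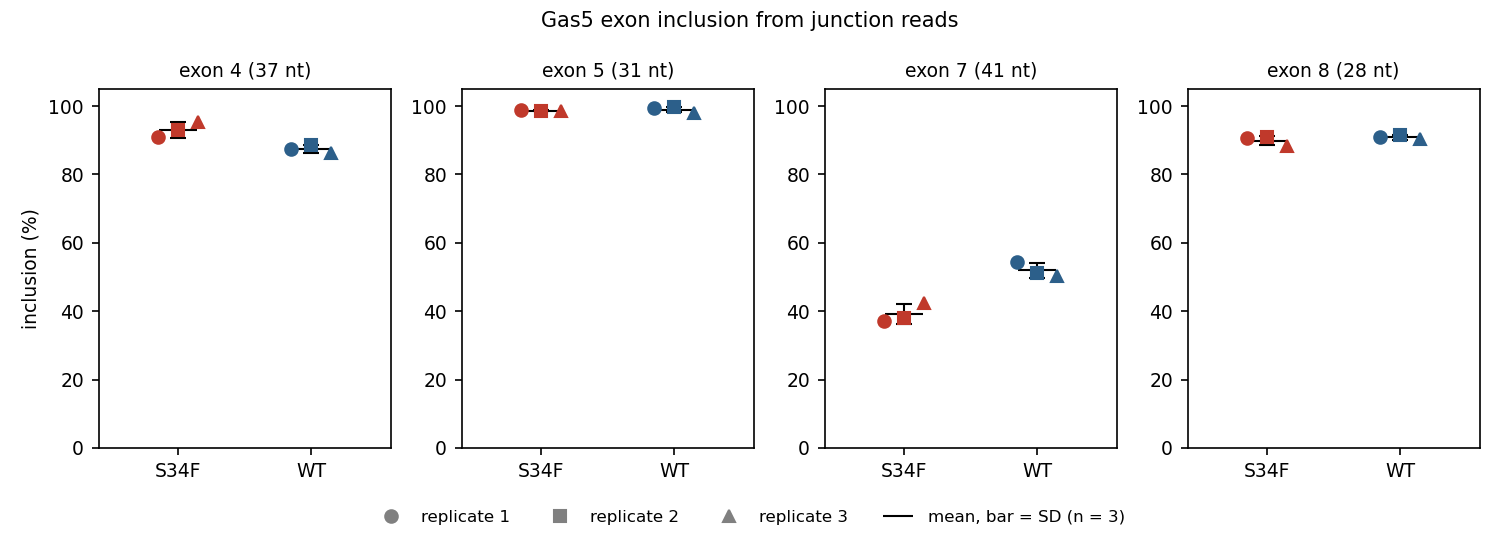
Inclusion in percent (y axis, from 0) of Gas5 exons 4, 5, 7 and 8 in S34F and WT libraries, from splice junction reads; each point is a library, its shape the replicate, and the line and bar are the mean and SD of 3 libraries. Exon 7 lies between 37.1 and 42.4% in S34F and between 50.3 and 54.4% in WT, exon 4 is higher in S34F, and exons 5 and 8 overlap.

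The same choices were seen from single splice sites. From the donor of exon 6, 29.6, 30.9 and 30.8% of reads went to the acceptor of exon 7 in S34F and 44.9, 43.5 and 42.8% in WT. The 3 S34F libraries were close to each other and all below the WT libraries. How many of all acceptor choices separate in this way was not counted. The means were 30.4 ± 0.735% and 43.7 ± 1.10% (SD, n = 3), with a log2 difference of -0.83 ± 0.22 (SE; edgeR adjusted p = 0.545; DESeq2 adjusted p = 0.00151). The main competitor was the acceptor of exon 8, which took 54.6, 52.8 and 48.9% in S34F and 41.4, 43.6 and 43.1% in WT. From the donor of exon 3, the jump over exon 4 to exon 5 took 8.19, 6.19 and 3.66% in S34F and 9.64, 9.77 and 11.2% in WT (log2 difference -0.89, edgeR adjusted p = 0.665). These were 2 of 13 acceptor choices tested in the hosts with an unadjusted p under 0.05, against 7.5% of all 29709, and edgeR called 0 of the 13 and 0% of all. DESeq2 called the choice of exon 7, 1 of the 13, and 1.24% of all.

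Seen from the acceptors, 5 of 19 donor choices of the hosts had an unadjusted edgeR p under 0.05, against 6.41% of all 30084, and all 5 belong to Gas5. At the acceptor of exon 5, reads from exon 4 were 91.8% in S34F and 84.2% in WT on average, and the rest came from exon 3 (edgeR adjusted p = 0.582 for both). At the acceptor of exon 8, reads from exon 6 were 58.7 and 46.8% and reads from exon 7 41.2 and 53.1% (edgeR adjusted p = 0.698 for both). These 4 choices are the exon 4 and exon 7 events seen from their other side.

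The fifth was the use of the exon 5 donor at the acceptor of exon 6, where the other reads came from exon 3, a joint skip of exons 4 and 5, and from exon 4. Reads from exon 3 straight to exon 6 numbered 159, 133 and 14 in S34F and 9, 48 and 0 in WT, that is 1.90, 2.03 and 1.90% of reads at the exon 6 acceptor in S34F and 0.961, 0.877 and 0% in WT. Tested as its own donor choice, this minor form had an edgeR adjusted p of 0.805 (log2 difference 2.03 ± 1.05, SE). Reads from exon 4 to exon 6 made up 1.04, 1.36 and 1.22% in the S34F libraries against 0.534, 0.366 and 1.72% for WT, which overlap (edgeR adjusted p = 0.897). The main donor, exon 5, had 96.9% in S34F and 98.5% in WT, a log2 difference of -1.12 ± 0.21 (SE; edgeR adjusted p = 0.563; DESeq2 adjusted p = 0.0833). edgeR called 0 of the 19 donor choices and 0.00997% of all, and DESeq2 0 of the 19 and 0.774% of all.

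Measured instead as the share of each junction in all junction reads of its gene, 28 junctions of the 5 hosts were tested and 0 had an unadjusted edgeR p under 0.05, where 5.65% of 121326 junctions did. edgeR called 0 of the 28 and 0.00412% of all, and DESeq2 0 and 0.0808%. In Gas5 this measure mixes the exon choices with the uneven 5′ signal, and its lowest p was at the junction from exon 6 to exon 8 (edgeR adjusted p = 0.879). In Snhg5 the lowest was at intron 1 (edgeR adjusted p = 0.902), in Snhg3 at the intron with Snora73b (edgeR adjusted p = 0.904), in Snhg12 at intron 3, which holds Snora61 (edgeR adjusted p = 0.923), and in Snhg1 at the intron with SNORD30 (edgeR adjusted p = 0.964). The test did not separate the shares of the annotated introns of these 4 hosts.

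Junctions absent from the annotation took 1.51% of the junction reads of Gas5, 0.726% in Snhg1, 0.384% in Snhg12, 0.252% in Snhg5 and none in Snhg3. The annotated introns of the hosts use 25 acceptors, of which 12 have T before the AG, 11 C, 2 A and 0 G. In the authors' deposited table of junction tests, 1 of the 52 host junctions had an adjusted p under 0.05, against 0.34% of all junctions, and it is a junction of Snhg1.

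That junction joins the donor of the Snhg1 intron with SNORD30 to the second AG of its printed pair, 2 nt downstream of the main acceptor and preceded by G. It had 38, 23 and 20 reads in S34F and 0, 0 and 0 in WT, beside 2121, 1989 and 1737 reads at the main acceptor in S34F and 1863, 2765 and 4307 in WT. All 3 S34F libraries used it and no read was found in WT. It took 1.76, 1.14 and 1.14% of the donor's reads in S34F, pooled 1.37% (exact Clopper-Pearson 95% interval 1.09 to 1.70%). In WT it took 0 of 8935 reads, which allows a share of up to 0.0336% (3 reads); interval and limit cover counting error only. The authors' deposited table gives an adjusted p of 3.05e-11.

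This junction was too rare for the 1% minimum of the splicing tests used here. With a minimum of 0.1%, chosen after the data were seen, its share within Snhg1 had an edgeR adjusted p of 0.142, and as a choice of acceptor an adjusted p of 0.464. At that minimum edgeR called 0.00783% of junctions. The difference was thus called in the authors' test and not in edgeR's.

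The other Snhg1 pair went the other way and was uneven among replicates. The AG 6 nt downstream at the last intron, preceded by C, had 0, 0 and 0 reads in S34F and 21, 0 and 57 in WT. WT replicate 2 had none, like the S34F libraries, so the groups overlap. In S34F it took 0 of 5903 reads of the donor, which allows up to 0.0508%, and in WT 0.860% pooled (exact Clopper-Pearson 95% interval 0.681 to 1.07%). The authors' deposited table gives an adjusted p of 0.210. For both pairs, how the aligner placed reads that end within a few bases of a junction was not tested.

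**Figure D5:**
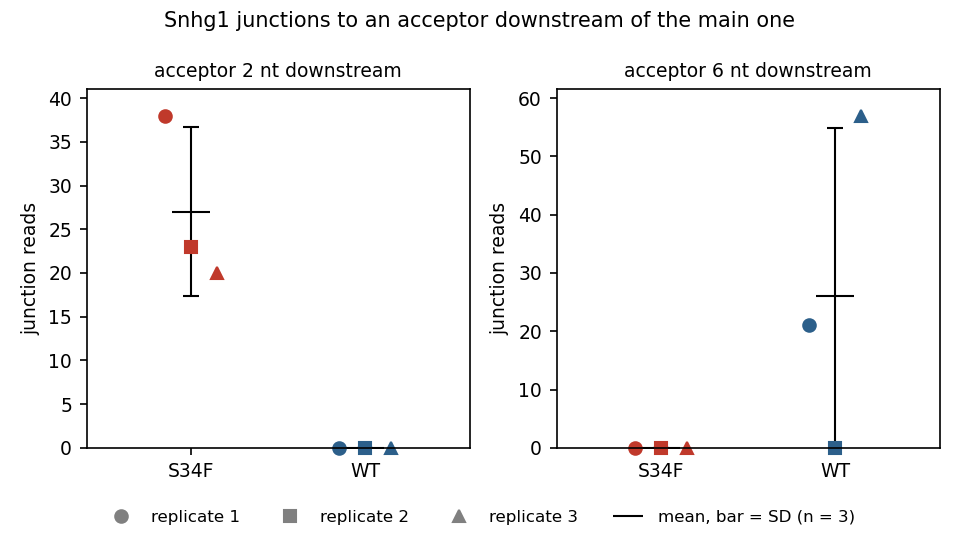
Junction reads (y axis, counts) at the Snhg1 acceptors 2 nt (left) and 6 nt (right) downstream of the main one, in S34F and WT libraries; each point is a library, its shape the replicate, and the line and bar are the mean and SD of 3 libraries, cut at 0. The acceptor 2 nt downstream has 20 to 38 reads in S34F and 0 in WT, and the one 6 nt downstream has reads in WT replicates 1 and 3 and in no S34F library.

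Most hosted snoRNAs have no row in the gene table under their annotated name. Snora73a and Snora73b, box H/ACA RNAs that act in ribosomal RNA processing and come from Snhg3, have rows of their own. Snora73a had 341, 286 and 359 CPM in S34F and 343, 334 and 352 in WT (edgeR adjusted p = 0.847). Snora73b had 295, 372 and 199 CPM in S34F and 256, 245 and 390 in WT (edgeR adjusted p = 0.962). Snora16a, in intron 1 of Snhg12, had only 19 to 46 reads in S34F and 51 to 148 in WT. Its CPM was 0.880, 0.410 and 0.733 in S34F and 0.924, 1.66 and 1.58 in WT (log2 fold change -1.04 ± 0.39 (SE), edgeR adjusted p = 0.541). Every S34F library lay below every WT library, as for 8.47% of all genes, while the libraries of its host overlapped. Of 19 gene rows of snoRNAs, 6 had every S34F library below every WT library and 1 had every S34F library above. Reads in these rows can come from the host's unspliced intron as well as from the processed snoRNA, and the counts do not separate them.

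Lists of related genes were set beside the hosts. Of 9 other noncoding hosts that were tested, 5 had a log2 fold change above 0 and 4 below, with a median of 0.06. Those of lowest p were 2410004N09Rik (log2 fold change 0.51, edgeR adjusted p = 0.538) and 2810008D09Rik, a RefSeq synonym of Snhg20 (0.39, edgeR adjusted p = 0.552). Among 41 protein-coding hosts, 19 were higher and 22 lower, with a median of -0.03. The coding hosts held 7 genes higher and 1 lower at an unadjusted edgeR p under 0.05, where 4.39% of all genes were higher and 4.7% lower at that p. DESeq2 called 1 of the 41, and 0.689% of all genes. That gene was Ncl, which encodes nucleolin, an abundant nucleolar protein of ribosome assembly. Ncl had 1114, 858 and 946 CPM in S34F and 742, 535 and 536 in WT, with no overlap (log2 fold change 0.69 ± 0.16 (SE), edgeR adjusted p = 0.538; DESeq2 adjusted p = 0.0247).

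Genes of snoRNA function and of decay were not called in either test. Of 19 protein genes of snoRNA particles, 9 were higher and 10 lower, with a median of -0.04. Dkc1, the pseudouridine synthase of box H/ACA particles, had a log2 fold change of 0.41 (edgeR adjusted p = 0.538), and Fbl, the methyltransferase of box C/D particles, 0.47 (edgeR adjusted p = 0.552). Of 19 factors of nonsense-mediated decay, 15 were higher and 4 lower, with a median of 0.16. Upf3b, which links the exon junction complex to decay, had 0.55 (edgeR adjusted p = 0.538), and Rbm8a, a core part of that complex, 0.76 (edgeR adjusted p = 0.548). Among 20 other genes whose RNAs are known targets of the pathway, 13 were higher and 7 lower, with a median of 0.18. At an unadjusted edgeR p under 0.05, 4 of the 20 were higher and 1 lower, against 4.39% and 4.7% of all genes. Upf3b is in both lists, and Hnrnpl, a splicing regulator that controls its own level through a decayed form, had -0.41 (edgeR adjusted p = 0.538).

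Of 80 cytosolic ribosomal protein genes tested, 13 were higher and 67 lower, with a median of -0.13, where all genes had -0.01 and the 5 hosts 0.58. Taken between libraries of the same replicate number, the median of these 80 was 0.03 for replicate 1, -0.20 for replicate 2 and -0.23 for replicate 3, so the lower values came from replicates 2 and 3. Rpl4, a host of snoRNAs itself, had 0.38 and Rplp0 -0.43 (edgeR adjusted p = 0.538 for both). In 19 gene rows of snoRNAs, 1 was higher and 18 lower, with a median of -0.40. With the 61 rows that match in either letter case, 9 were higher and 52 lower, with a median of -0.39. Between libraries of the same number, the median of the 19 was -0.03, -0.67 and -0.38 for replicates 1, 2 and 3. DESeq2 called 2 of the 19 lower, where it called 0.445% of all genes lower. These were Snord118, the U8 RNA that acts in processing of large-subunit ribosomal RNA (log2 fold change -1.21, DESeq2 adjusted p = 0.0492), and Snora24 (-0.98, DESeq2 adjusted p = 0.0386). All rows named as snoRNAs took 0.293 to 0.319% of gene reads in S34F and 0.326 to 0.396% in WT, a share that was highest in the 2 deepest libraries, and the part of depth in it was not tested.

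The genes most like the hosts were found from the median profile of the 5 hosts over the 6 libraries, as centred log2 CPM, among 9158 other genes with a mean of at least 10 CPM. They were Rprd1a, with a root mean square difference of 0.0702, Srsf7 (0.0785), Stx12 (0.0986), Ahsa2 (0.101) and Atf7ip (0.101). In each of them, as in Snhg5 and Snhg12, WT replicates 2 and 3 were the lowest libraries.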

How the data were processed

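The deposited tables hold raw read counts per gene and per splice junction for 6 libraries, 3 per genotype, with no normalization. Genotypes were taken from the sample titles, because the genotype entry reads S34F for all 6 samples. Reads were aligned with TopHat 2.0.8 to mm9, per the series design text. The submitters' processing notes also list HTSeq 0.5.4p1, Cufflinks 2.1.1, Bowtie2 2.1.0, TopHat2 2.0.8 and DESeq2 1.6.1, without roles. Per the file headers, the authors' own tests give p-values, before and after adjustment, with the fold as a ratio and in log2. The authors' DEXSeq results for junctions add a dispersion and test statistic (each a score) and a mean count (a coverage signal). The authors' FPKM per gene come with no statement of their normalization.

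Gene counts were tested with edgeR 4.0.16 in R 4.3.3 (TMM scaling, default expression filter, quasi-likelihood F test), and CPM were computed with library sizes times TMM factors. Splicing events entered edgeR as 2 counts per library, with terms for library and form, and the interaction of genotype and form was tested. Events with at least 20 reads in each library were tested if both forms reached 1% of the pooled reads (2% for cassette exons of 10 to 1000 nt). For a cassette exon, only the skipping junction of the flanking pair with most reads was counted. Junction reads per gene read were tested with limma 3.58.1 on log2 ratios after adding 0.5 to both counts. All tests were two-sided and fitted on whole tables, with Benjamini-Hochberg adjustment over all features and a threshold of 0.05. DESeq2 1.42.0, limma, other scalings, filters and pseudocounts, left-out libraries and the replicate number as a block were alternatives. The edgeR and limma fits of the main results were tested on simulated data with known changes; the DESeq2 alternatives were not.

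Junction positions in the table are exon bases, so introns start and end 1 base inside them. Sequences come from the mouse genome of build mm9 and gene models from its annotation. The hosts and the lists of related genes were chosen with earlier results of these data known. All hosts found are named, with each of their splicing events at an unadjusted edgeR p under 0.05, or else the junction of lowest p. Of each list, genes called by edgeR or DESeq2 are named, or else those of lowest edgeR p. The p-values of these tests set the genotype difference against the variation between pools of mice, counting error included, and not between single animals.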

Additional observations from a re-analysis of the deposited data

How the results depend on the processing

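In 25 results on the hosts, 328 alternative values were computed, of which 314 kept their direction and their side of the threshold, 9 passed it, 0 dropped out of it and 5 turned sign. Hosts called at the gene level numbered 0 to 2 when single libraries were left out, 1 without both replicate 1 libraries and 1 without the 2 libraries of fewest Gas5 junction reads. Hosts called for junction reads per gene read numbered 0 to 1 when single libraries were left out and 1 without both replicate 1 libraries. DESeq2 called 1 acceptor choice and 2 cassette exons of Gas5 where edgeR called none. Gas5 over the next host per length was 1.81 by annotated exon length, and 6.35 to 7.62 by FPKM with single libraries left out. The values that turned sign were all log2 differences of junction reads per gene read. With single libraries left out, that of Gas5 ran from -0.030 (without WT replicate 1) to 0.86, Snhg3 from -0.25 to 0.037 (without S34F replicate 1) and Snhg5 from -0.022 (without WT replicate 2) to 0.063. Without both replicate 1 libraries Gas5 had -0.26 and Snhg3 0.10; the cause was not tested. The exon 7 difference ranged from -0.84 to -0.62 and that of exon 4 from 0.69 to 1.16 over 14 alternatives each, with adjusted p from 0.0145 to 0.628 and from 0.0978 to 0.641.

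Over whole tables, DESeq2 called 96 genes, 98 junctions, 368 acceptor choices, 233 donor choices and 99 cassette exons where edgeR called 0, 5, 0, 3 and 2, and limma called 2, 59, 66 and 0 of the 4 kinds of event. A minimum share of 5% gave 0 junctions, 3 acceptor choices and 7 cassette exons, and one of 0.1%, chosen after seeing the data as the 2-library setting was, gave 11 junctions, 0 donor choices and 0 cassette exons. Without both replicate 1 libraries 599 genes and 11 junction ratios were called, and without the 2 libraries 129 genes and 5 ratios. Leaving out single libraries gave 0 to 1172 genes, 0 to 14 junctions, 0 to 5 donor choices, 0 cassette exons and 0 to 24 ratios, the highest gene and ratio counts without WT replicate 1.

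Same-numbered libraries of both genotypes correlated in their deviations at 0.21, 0.27 and 0.02. S34F replicates 1 and 2 correlated best with their own number, and S34F replicate 3 with WT replicate 1 (0.08). The main tests did not pair libraries by number, and these values do not settle whether the numbers mark pairs. With the replicate number as a block, 0 hosts were called at the gene level (Gas5 log2 fold change 0.59, edgeR adjusted p = 0.273; Snhg5 0.62, adjusted p = 0.288), 0 events of the hosts were called, and 5 genes, 2 junctions, 0 donor choices and 0 cassette exons were called over whole tables. Depth limits the Gas5 events most in S34F replicate 3 and WT replicate 1. They had 34 and 119 reads that skip exon 4, and 313 and 328 that skip exon 7.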

Other observations

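Under RefSeq synonyms, 2 further hosts had rows in the tables. Gm11974, a synonym of Snhg15, had 38.8, 33.9 and 30.4 CPM in S34F and 29.8, 33.1 and 37.6 in WT (log2 fold change 0.04, edgeR adjusted p = 0.935). Its groups overlapped fully. 1500012F01Rik, a synonym of Zfas1, had 80.9, 76.9 and 86.7 CPM in S34F and 70.7, 68.9 and 81.0 in WT (log2 fold change 0.15, edgeR adjusted p = 0.636). For 1500012F01Rik the S34F libraries had 1.58, 1.59 and 1.51 junction reads per gene read, and the WT libraries 1.64, 1.69 and 1.71. Every S34F library was below every WT library, as for 7.56% of all genes (limma adjusted p = 0.679).

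A minor Gas5 junction from a donor 9 nt downstream of the main donor of exon 8 to exon 9 had 9, 10 and 0 reads in S34F and 0, 0 and 0 in WT. Counts this low allow no statement on genotype. The skip of exons 7 to 10, from exon 6 straight to exon 11, took 7.75, 9.06 and 12.0% of reads from the exon 6 donor in S34F and 6.57, 6.47 and 7.26% in WT. The log2 difference was 0.52 (edgeR adjusted p = 0.707).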
